A study of Mus musculus with 2 samples.

Results

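The genes described are 9 of the heme synthesis pathway. They are 7 enzymes (Alas2, Alad, Uros, Urod, Cpox, Ppox and Fech) and 2 carriers of the inner mitochondrial membrane (Slc25a38 and Slc25a37). They were taken by symbol from a deposited table of 54532 genes, where each had exactly 1 row. Their levels were compared between 2 libraries from a sort for mouse bone marrow niche cells, the stromal cells that surround blood-forming cells. By summed level, red cell markers stood above stroma markers in both libraries, as given below. This held also without the globin genes, which made up most of the red cell sum. The levels are thus not those of stromal cells alone. All recipients were female CB6F1 mice, given 4.0 Gy of irradiation 2 times and, 4 hours later, 5000000 marrow cells of B6.SJL donors (CD45.1+). The BMT library came from mice with this transplant alone. The aGVHD_V library came from mice that also received 60000000 spleen cells of female C57BL/6 donors. This models acute graft-versus-host disease (aGVHD), an attack of donor T cells on recipient tissues. The meaning of the V, the day of sampling, the age of the mice and the number of mice behind each library are not stated in the labels. Each group holds 1 library, so no difference has a replicate check and no p-value is given.

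Heme is an iron-porphyrin made in a route that begins and ends inside the mitochondrion and passes through the cytosol in between. Glycine enters the mitochondrion and is joined to succinyl-CoA, the product is built into a ring in the cytosol, and the ring returns to the mitochondrion, where iron is inserted. Nearly all cells make some heme for cytochromes, but red cell precursors make most of it, for hemoglobin. They switch on their own form of the first enzyme, Alas2, and their own iron importer, Slc25a37. Stromal niche cells are not known as a site of high heme synthesis.

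All 9 genes had a higher level in the aGVHD_V library, and 1 of them, Alas2, was at least 2-fold higher. Levels are in FPKM, fragments divided by gene length in kilobases and by a library size that the authors had scaled, so they can be compared between genes. The ratios of aGVHD_V to BMT ran from 1.30 for Uros to 2.65 for Alas2, and the other 7 lay between 1.56 for Ppox and 1.91 for Slc25a37. The median difference of log2(FPKM + 1) over the 9 genes was 0.74. The 12942 genes that reached an FPKM of 1 in either library are called measured. Over them the median was -0.07 and 46.1% were higher by any amount. Of those measured genes 8.65% were at least 2-fold higher in aGVHD_V and 19.4% at least 2-fold lower. Of the 9 heme synthesis genes 1 was higher by that much and 0 were lower. Levels above 20 lean upward in this table: of the 3165 genes reaching an FPKM of 20 in either library, 63.8% were higher and 7.52% at least 2-fold higher, with a median of 0.16. All 9 heme synthesis genes belong to that class. In bulk libraries, a larger number of cells of a type and more RNA per cell cannot be told apart.

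The libraries hold 10869191 reads over genes (BMT) and 11299834 (aGVHD_V), recovered from the FPKM. A detected gene most often had 14 reads in BMT and 44 in aGVHD_V. Intervals given here are therefore widened 95% intervals, in which that many reads are treated as 1 count. They cover counting error only and hold no variation between mice. With them, the ratio of 8 of the 9 genes lay above 1, and that of Uros did not. The share of all measured genes with such an interval was not computed, so this count has no background beside it. The intervals also leave out the choice of library scaling, which moves all the ratios, as given below.

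The first sequences shown are upstream stretches of the gene with the largest ratio, of a mitochondrial enzyme with the same motifs, and of an internal start of the gene with the smallest ratio. Each has the 250 bases before a RefSeq start (GRCm38.p6), 5′ to 3′ on the gene's strand. Capitals mark GATAA, the core bound by GATA1, and CACCC, the core bound by KLF1, on either strand (TTATC and GGGTG are their reverse complements). These factors direct transcription in red cell precursors.
Alas2, chrX:150547167-150547416, plus strand: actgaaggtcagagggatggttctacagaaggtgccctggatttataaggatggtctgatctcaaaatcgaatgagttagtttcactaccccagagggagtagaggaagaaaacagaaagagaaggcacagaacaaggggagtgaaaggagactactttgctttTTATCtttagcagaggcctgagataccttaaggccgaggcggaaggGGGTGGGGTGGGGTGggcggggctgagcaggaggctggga
Cpox, chr16:58669958-58670207, plus strand: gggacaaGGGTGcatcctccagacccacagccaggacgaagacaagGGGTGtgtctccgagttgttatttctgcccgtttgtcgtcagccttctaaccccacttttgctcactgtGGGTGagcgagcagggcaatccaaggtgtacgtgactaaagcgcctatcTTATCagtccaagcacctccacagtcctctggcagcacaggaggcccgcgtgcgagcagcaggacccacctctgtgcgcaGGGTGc
Uros, internal start, chr7:133702501-133702750, minus strand: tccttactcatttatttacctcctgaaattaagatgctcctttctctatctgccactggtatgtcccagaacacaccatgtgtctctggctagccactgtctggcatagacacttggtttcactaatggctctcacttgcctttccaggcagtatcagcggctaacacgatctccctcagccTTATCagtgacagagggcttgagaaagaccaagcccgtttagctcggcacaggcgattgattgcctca

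Windows of 300 bases (250 before and 50 after a start) were used for 7 of the 9 genes, with 9 windows in all, since Alad and Uros each have 2 starts. GATAA was found in 3 of these 9 windows, those printed, and in 25.4% of all 32851 windows of the same length. In Alas2 and in Cpox the match began 86 bases before the start, and at the internal start of Uros 68 bases before it. Cpox held another GATAA from the fifth base onward. CACCC was found in 5 of the 9 windows and in 57.5% of all windows, with 3 matches side by side in Alas2 and 4 in Cpox. The gene with the smallest ratio and the gene with the largest thus both had a window with GATAA, and Alad, Urod, Ppox and Slc25a38 had none in theirs. These matches describe letters and were not tested for binding. As background, mouse Uros and Alad are each known to have a start used in most cells and another used in red cell precursors. The table gives 1 value per gene, so the starts could not be separated.

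Alas2 mRNA also carries an iron-responsive element, a hairpin through which iron regulatory proteins block its translation when iron is scarce. The same element lies in the 5′ untranslated part of the ferritin mRNAs Fth1 and Ftl1. The sites are shown because they tie the first enzyme of the pathway to iron supply. Capitals mark the bulged C and the loop of the pattern CNNNNNCAGTGN, read on the RNA strand only, in GENCODE M21 transcripts (GRCm38).
Alas2, chrX:150547456-150547484, plus strand: ctttggttCgtcctCAGTGCagggcaaca
Fth1, chr19:9982730-9982758, plus strand: gtttcctgCttcaaCAGTGCttgaacgga
Ftl1, chr7:45459781-45459809, minus strand: gtgtcttgCttcaaCAGTGTttgaacgga

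The pattern was present in the 5′ untranslated part of both coding transcripts of Alas2, and in 2 of the 5 of Fech. It was in none of those of the other 7 genes. In the first 126 bases of the 5′ untranslated part, which is the length in Alas2, 4.24% of 14162 genes held the pattern. That share covers only the longest such transcript of each gene. The counts above cover the whole 5′ untranslated part of every coding transcript, so the share is not their background. A match describes letters, and folding into a hairpin was not checked. The element acts on translation, which RNA levels do not show.

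**Figure D1:**
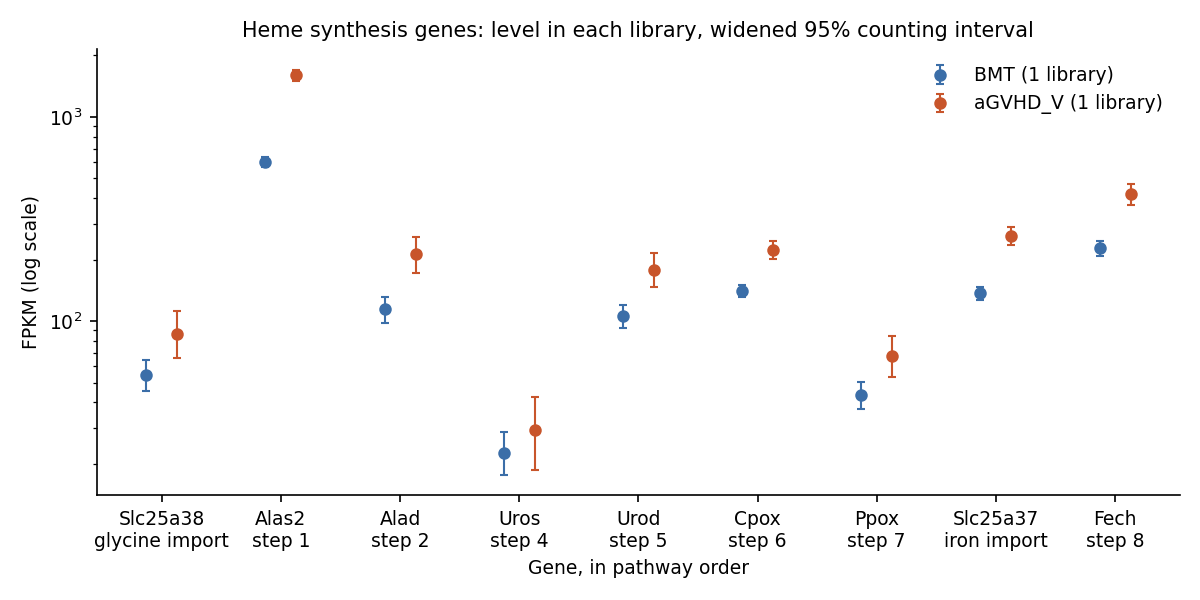
Level of each of the 9 genes in FPKM (log axis) in the BMT library (blue) and the aGVHD_V library (orange), in pathway order. Bars are widened 95% counting intervals. Every orange point lies above its blue point, Alas2 is highest and Uros lowest in both libraries, and the intervals of both libraries overlap for Uros alone.

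Slc25a38 (ENSMUSG00000032519, chromosome 9, 120110374 to 120124504, plus strand) brings glycine into the mitochondrion. Its FPKM was 54.4 in BMT (interval 45.3 to 64.4) and 86.8 in aGVHD_V (66.2 to 113). The ratio was 1.60 (1.16 to 2.21). The carrier of the starting material thus stood among the lower levels of the pathway in both libraries, in place 7 of 9.

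Alas2 (ENSMUSG00000025270, X chromosome, 150547375 to 150570638, plus strand) is the red cell form of aminolevulinate synthase and catalyses the first and rate-limiting step. The BMT library gave 17609 reads, or an FPKM of 604 (interval 571 to 639). The aGVHD_V library gave 41011 reads, or an FPKM of 1601 (1499.5 to 1707). The ratio was 2.65 (2.43 to 2.88). The lower bound lies above the upper bound of each of the other 8 ratios, of which the highest is 2.39 for Alad. Among all genes of the table, Alas2 stood at place 45 by FPKM in BMT and at place 21 in aGVHD_V. Its part of the FPKM sum of the 9 genes was 41.7% in BMT and 52.0% in aGVHD_V. A mutated ALAS2 gene causes X-linked sideroblastic anaemia in humans.

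The cytosolic enzymes follow. Alad (ENSMUSG00000028393, chromosome 4, 62509169 to 62519918, minus strand) joins pairs of aminolevulinate into porphobilinogen. Its FPKM was 114 in BMT and 212 in aGVHD_V, a ratio of 1.86 (1.43 to 2.39). Uros (ENSMUSG00000030979, chromosome 7, 133686243 to 133710072, minus strand) closes the ring into uroporphyrinogen III. It was lowest of the 9 in both libraries, with an FPKM of 22.5 (interval 17.6 to 28.6) in BMT and 29.2 (18.7 to 42.6) in aGVHD_V. Its ratio of 1.30 had an interval from 0.775 to 2.04, which includes no difference. Urod (ENSMUSG00000028684, chromosome 4, 116989965 to 116994413, minus strand) removes carboxyl groups to give coproporphyrinogen. Its FPKM was 106 against 178, a ratio of 1.67 (1.33 to 2.11).

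The last enzymes work in the mitochondrion. Cpox (ENSMUSG00000022742, chromosome 16, 58670292 to 58717636, plus strand) is the oxidase of the intermembrane space that makes protoporphyrinogen. Its FPKM was 140 in BMT and 223 in aGVHD_V, a ratio of 1.59 (1.40 to 1.80). Ppox (ENSMUSG00000062729, chromosome 1, 171275990 to 171281186, minus strand) oxidises its product to protoporphyrin. Its level was 43.2 against 67.6, a ratio of 1.56 (1.17 to 2.07). Slc25a37, or mitoferrin 1 (ENSMUSG00000034248, chromosome 14, 69241848 to 69285112, minus strand), supplies the iron. Its FPKM was 137 in BMT and 262 in aGVHD_V, a ratio of 1.91 (1.68 to 2.17). Fech (ENSMUSG00000024588, chromosome 18), ferrochelatase, inserts the iron into the ring. It was second in level in both libraries with an FPKM of 228 against 419, a ratio of 1.84 (1.59 to 2.12).

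The order of the levels was nearly the same in both libraries. Spearman's rho between them was 0.983 over the 9 genes, which share both libraries and are not independent. Slc25a37 and Cpox changed places, and their intervals overlapped in each library. Of the 8 neighbouring pairs in the order, 4 had overlapping intervals in BMT and 4 in aGVHD_V. These were the pairs in the run from Cpox and Slc25a37 through Alad to Urod, and the pair of Slc25a38 and Ppox. Alas2, Fech and Uros stood apart from their neighbours in both. The highest level was 26.9 times the lowest in BMT and 54.7 times in aGVHD_V.

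By place in the cell, the FPKM sum of the 4 mitochondrial enzymes was 1015 against 2310, a ratio of 2.27 in which Alas2 carries the most. The 3 cytosolic enzymes summed to 243 against 419, a ratio of 1.73, and the 2 carriers to 191 against 349, a ratio of 1.82. Without Alas2 the 8 remaining genes summed to 845 against 1477, a ratio of 1.75, and their median difference was 0.70. Relative to Fech, the FPKM of Alas2 was 2.65 in BMT and 3.82 in aGVHD_V, and that of Alad was 0.501 and 0.507. Beyond counting error, Alas2 thus had a larger ratio than the other 8 genes. The intervals of those 8 ratios all overlap. Their highest lower bound (1.68 for Slc25a37) lies below their lowest upper bound (1.80 for Cpox).

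**Figure D2:**
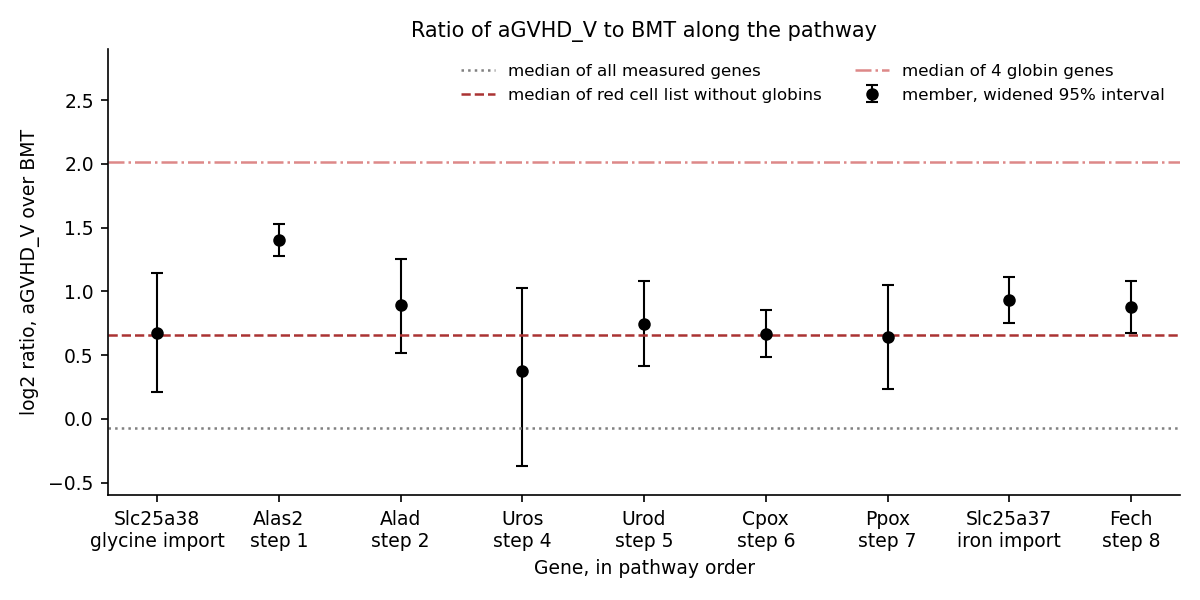
Log2 ratio of aGVHD_V to BMT for each gene in pathway order, with widened 95% counting intervals. Lines give median differences of log2(FPKM + 1) over all measured genes (-0.07), the red cell list without globin genes (0.66) and 4 globin genes (2.01). Alas2 (ratio 2.65) lies between the red cell and globin lines, and the interval of each other gene except Slc25a37 and Fech spans the red cell line.

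The genes of the same pathway outside the 9, and its helpers, had lower medians. The list of heme partners, which holds other steps, carriers and helper proteins of heme synthesis, had a median difference of 0.36, with 12 of 15 measured genes higher, 1 of them at least 2-fold, and none at least 2-fold lower. Slc25a39, a mitochondrial glutathione carrier, had 72.1 against 192, a ratio of 2.66 (2.10 to 3.36), as large as that of Alas2. Slc6a9, the glycine transporter of the plasma membrane, had 15.4 against 28.9 (1.88, 1.21 to 2.83). Abcb10, a transporter of the inner membrane that stabilises mitoferrin 1, had 64.4 against 108 (1.68, 1.33 to 2.11). Tmem14c, a protein needed to bring the porphyrin back into the matrix, had the highest mean of that list at 351 against 507 (1.45, 1.15 to 1.80).

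2 genes of that list, Alas1 and Slc25a28, are the forms of Alas2 and Slc25a37 used by cells in general. They fall outside the naming rule and were picked after their values were seen. Alas1 stood at 13.7 in BMT and 8.60 in aGVHD_V, a ratio of 0.626 (0.319 to 1.14). Slc25a28, mitoferrin 2, had 17.6 against 13.8, a ratio of 0.782 (0.231 to 2.09). Both intervals include no difference, and neither extends to the ratio of Alas2. Alas2 exceeded Alas1 by 44.0 times in BMT and by 186 times in aGVHD_V. Slc25a37 exceeded Slc25a28 by 7.79 times and 19.0 times. The erythroid form was thus the main form in both libraries.

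Genes that make iron-sulfur clusters, which Fech carries as a cofactor in mammals, had a median of 0.19 over 15 measured genes, with 1 at least 2-fold higher and 1 at least 2-fold lower. The higher was Hscb, a co-chaperone of cluster transfer, with an FPKM of 19.0 against 57.7 (ratio 3.05, 1.36 to 6.98). The lower was Fdxr, ferredoxin reductase, with 7.23 against 2.54 on 246 and 76 reads (ratio 0.351, 0.0447 to 1.66, which includes no difference). Bola3, a cluster targeting factor, had 17.3 against 35.4 (2.05, 1.26 to 3.39). Its difference of log2(FPKM + 1), on which the counts rest, was 0.997, so it was not counted as 2-fold higher. Glrx5, the glutaredoxin whose loss causes sideroblastic anaemia, had 116 against 223 (1.92, 1.60 to 2.28). Fdx1l, picked after its values were seen, was not measured. Its FPKM was 0.81 in BMT, and aGVHD_V had no reads of it.

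Genes of heme export, sensing and breakdown had a median of 0.53 over 10 measured genes, none outside 2-fold and 8 above 0. Eif2ak1, the kinase that slows globin translation when heme is short, had an FPKM of 33.6 against 64.1 (ratio 1.91, 1.45 to 2.48). Hebp1, a heme-binding protein, had 30.6 against 54.5 (1.78, 1.24 to 2.54), and Abcg2, a porphyrin exporter, 13.6 against 24.2 (1.79, 1.24 to 2.55). Blvrb, a biliverdin reductase abundant in red cells, had the highest mean of that list at 155 against 238 (1.53, 1.26 to 1.85). Iron entry and storage had a median of 0.34 over 11 measured genes, none outside 2-fold and 8 above 0. The ferritin chains Fth1 and Ftl1, whose sites are shown above, had 1914 against 2415 (1.26, 1.14 to 1.40) and 588 against 857 (1.46, 1.26 to 1.68). Ncoa4, the receptor that delivers ferritin for breakdown, had 12.4 against 21.1 (1.69, 1.18 to 2.42). Slc40a1, the iron exporter ferroportin, was lower, at 13.9 against 8.19 (0.590, 0.340 to 0.987).

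Red cell markers moved with the heme synthesis genes. In the list of red cell genes, which contains none of the heme pathway, 23 of 24 genes in the table were measured, 22 were above 0, 7 were at least 2-fold higher and none at least 2-fold lower. Their median was 0.74, the same to 2 decimals as that of the 9 heme synthesis genes. The summed FPKM of the list was 45996 in BMT and 166995 in aGVHD_V, and 1 gene of it, Icam4, had no reads in either. Of the 23, 5 had a larger difference than Alas2, 7 a larger one than Fech and 21 a larger one than Uros. The 4 globin genes had a median of 2.01 and were summed at 43018 against 162021, a ratio of 3.77. The alpha globin genes Hba-a1 and Hba-a2 had ratios of 3.94 (3.84 to 4.04) and 5.14 (4.82 to 5.49). The beta globin genes Hbb-bs and Hbb-bt had ratios of 3.32 (3.23 to 3.40) and 4.13 (3.93 to 4.34), with the reads of each near-identical pair uncertain in their division. The 19 other measured red cell genes had a median of 0.66, and their sum had a ratio of 1.67, from 2977 to 4974. The sum of the 9 heme synthesis genes had a ratio of 2.12, from 1450 to 3078, which lies between both. Globin FPKM per FPKM of heme synthesis genes went from 29.7 to 52.6, and per FPKM of Alas2 from 71.2 to 101. What part the number of red cell precursors has in these values was not tested.

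Medians of the other cell type lists lay on both sides of 0. All 10 mesenchymal stroma markers were at least 2-fold lower in aGVHD_V, with a summed FPKM of 595 against 29.1. Cxcl12 had 346 against 14.6, and Lepr 29.5 against no reads. All 7 endothelial genes were measured, 6 were at least 2-fold lower, and 4 of them (Cdh5, Kdr, Tek and Cldn5) had no reads in the aGVHD_V library (summed FPKM 70.1 against 11.2). The ratio interval of Tek (0 to 2.48) includes no difference, and those of Cdh5, Kdr and Cldn5 lie below 1. In the B and plasma cell list 5 of the 6 that were measured were lower by 2-fold or more, and Cd79b, Ms4a1, Vpreb1 and Ebf1 had no reads in that library (68.4 against 11.98). The remaining measured gene, Jchain, the joining chain of secreted antibodies, was higher, at 1.70 against 10.5, a ratio of 6.15 (1.27 to 25.8), and was picked after its values were seen. Of the B cell genes without reads in aGVHD_V, Vpreb1 (ratio interval 0 to 2.09) and Ms4a1 (0 to 19.0) had intervals that include no difference. Those of Cd79b and Ebf1 lie below 1. Neutrophil genes had a median of 0.28 (15371 against 20792, 0 of 9 outside 2-fold). For monocyte and macrophage genes the median was -0.69 (1100 against 1126, 1 of 7 at least 2-fold lower). For megakaryocyte and platelet genes it was 1.16 (86.4 against 275, 4 of 6 at least 2-fold higher, 1 lower, and Gp1bb without reads in either library). Among them, the ratio intervals of Gp9 (0.575 to 7.75), Gp5 (0.567 to 13.3) and Tubb1, the lower gene (0.00824 to 2.51), include no difference. Those of Pf4 (3.58 to 12.4) and Itga2b (1.68 to 4.84) lie above 1. These genes were picked after their values were seen. The sort labelled CD45, lineage antigens and CD71, and was meant to deplete cells with CD45 or CD71. Ptprc, the gene of CD45, stood at 9.28 against 7.85, a ratio of 0.846 (0.571 to 1.24). Tfrc, the gene of CD71, had 160 against 269, a ratio of 1.68 (1.49 to 1.90), close to the 8 heme synthesis genes other than Alas2. Defining stroma markers were thus present in BMT and low or without reads in aGVHD_V, while each heme synthesis gene was above an FPKM of 20 in both. The part of these shifts in the heme synthesis values was not tested.

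**Figure D3:**
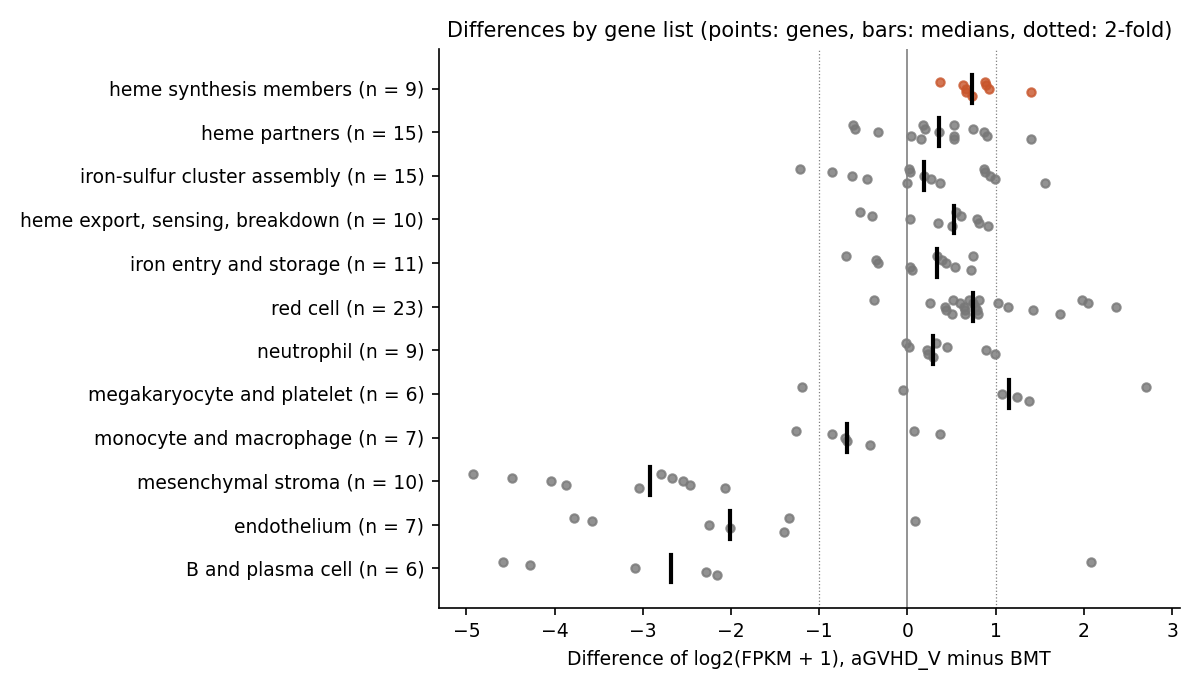
Difference of log2(FPKM + 1), aGVHD_V minus BMT, for measured genes of each list (points) with list medians (black bars). Dotted lines mark 2-fold. The 9 heme synthesis genes lie between 0.37 and 1.40, within the range of the red cell list (-0.38 to 2.36), and the stroma list lies wholly below -2.

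The direction depends on the scaling for 1 of the 9 genes as far as scalings by all genes go. When both libraries are set to an equal FPKM sum, Uros is at -0.20 and the other 8 stay above 0, between 0.07 for Ppox and 0.83 for Alas2, so that none is at least 2-fold higher and the median is 0.16. That scaling shifts the log2 difference of the median gene by -0.55. The globin genes took 3.71% of the reads in BMT and 11.8% in aGVHD_V. Measured against the median of the red cell list, 4 genes lie above it (Alas2 by 0.66, Slc25a37 by 0.19, Alad by 0.15 and Fech by 0.14) and 5 below it, of which Uros is lowest at -0.38.

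**Figure D4:**
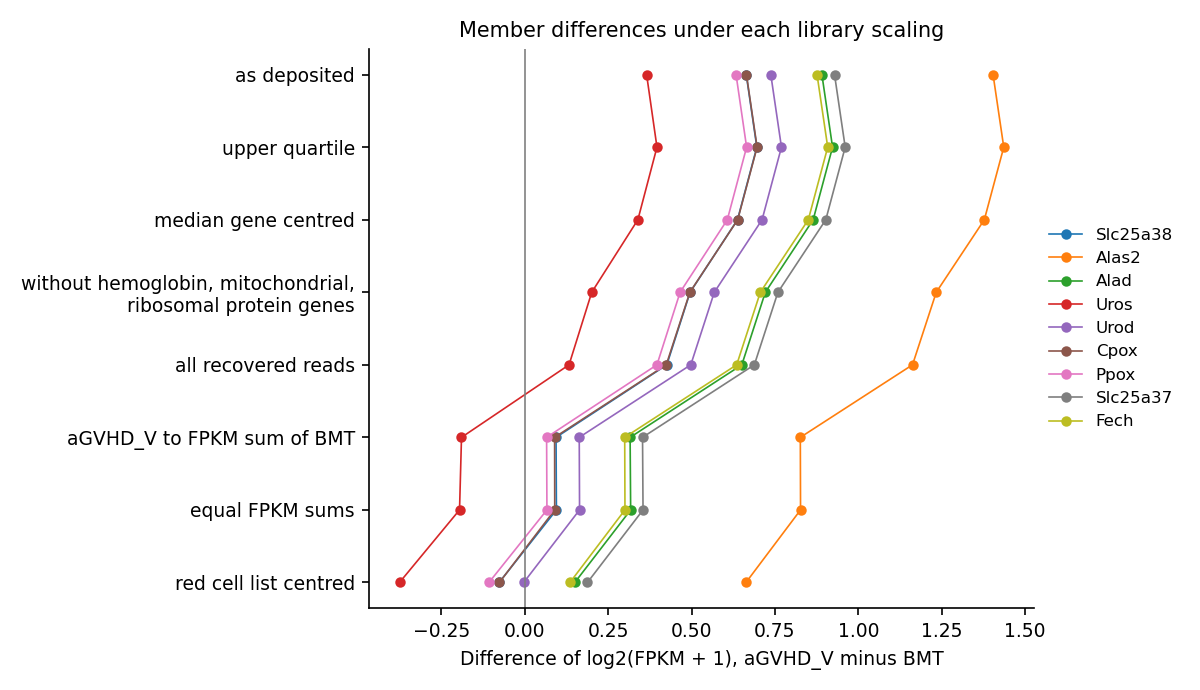
Difference of log2(FPKM + 1), aGVHD_V minus BMT, of each gene (colours) under 8 ways of scaling the libraries. Under each of them Alas2 lies at the right and Uros at the left. The median is 0.74 as deposited, 0.16 with equal FPKM sums and -0.0034 against the red cell list.

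Other genes overlap some of the 9 in the genome, and it is not given whether the counting used strand. Overlapping genes with reads were found for Alas2, Uros and Ppox, all on the opposite strand. Apex2, a DNA repair nuclease, shares 311 of the 2403 exonic bases of Alas2 and had an FPKM of 1.43 against 2.02. B4galt3, a galactosyltransferase, shares 791 of the 4515 exonic bases of Ppox and had 5.99 against 4.55. Bccip, which overlaps the 5′ end of Uros, shares no exonic base with it and had 36.8 against 48.6. For Alas2 and Ppox the level of the neighbour was far below that of the heme synthesis gene, and Bccip exceeded Uros in both libraries.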

How the data were processed

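RNA sequencing values of 2 libraries were used, 1 per group, grouped by their titles. Stromal cells were sorted after labelling CD45, lineage antigens and CD71, with Calcein AM and DAPI against dead cells, per the labels' protocols. The deposited values are FPKM per gene, per the file headers. Builds GRCm38 and mm10 and the tool edgeR 3.18.1 are named in the submitters' processing notes. For the aligner, counter and strand setting, nothing is given in the sources used here. 1 more column of per-sample values matched no label and was not used. Of 54532 gene identifiers, 54495 were in GENCODE M21 (GRCm38), 53585 with the same start and end. For 8 of the 9 genes start and end were the same, and Fech had other ends there.

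FPKM times gene length gave whole reads for 100% of values above 0 (tolerance 0.05). The read total of each library and the authors' scaled library size (12127100 and 10661700 reads) differ. Intervals of ratios are exact conditional binomial (Clopper-Pearson) and those of levels exact Poisson, at 95%, on reads divided by the modal read number (at least 4 reads, window of 7). Differences are log2(FPKM + 1), and 1 or more counted as at least 2-fold. This understates differences of low genes. Where a symbol had several rows, the row with the most reads was used.

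The 9 genes, the lists and the settings were chosen with earlier results of these data known. The level of 20 FPKM and the iron-responsive pattern were chosen after seeing the data. Named were all 9 genes, per list the 4 largest absolute differences and the highest mean, overlapping genes that reach an FPKM of 1, and Ptprc, Tfrc, Cxcl12 and Lepr. Values of 1 gene that this rule takes are not reported here. Simulated data with independent reads tested the intervals on single reads and the finding of genes past 2-fold. The recovery of reads was checked there with the value of 1 read already known. The widened intervals were not tested in that way. Alternatives were pseudocounts, filters, library scalings, floors and single reads as counts. Python 3.11.15, numpy 2.4.6, pandas 2.3.3, scipy 1.17.1 and matplotlib 3.10.9 were used.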

Additional observations from a re-analysis of the deposited data

How the results depend on the processing

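No paired analysis was possible because each group holds 1 library. No library was left out for the same reason. Depth limits Uros most, at 975 and 1115 reads. The median difference over the 9 genes (0.74) was 0.57 without hemoglobin, mitochondrial and ribosomal protein genes, 0.50 with library sizes of all recovered reads, 0.16 with equal FPKM sums or with aGVHD_V alone rescaled to the FPKM sum of BMT, and -0.0034 against the red cell list. Under the last 3 settings 0 genes were at least 2-fold higher instead of 1, and against the red cell list 4 instead of 9 were higher at all. Single genes changed sign in 7 of 108 values: Uros with equal sums (-0.20), with aGVHD_V rescaled (-0.19) and against the red cell list (-0.38), and against that list also Urod (-0.0034), Cpox (-0.076), Ppox (-0.11) and Slc25a38 (-0.077). List medians changed sign with equal sums, aGVHD_V rescaled and the red cell list: heme partners (-0.21, -0.21, -0.38), iron-sulfur cluster assembly (-0.41, -0.29, -0.55), heme export, sensing and breakdown (-0.061, -0.030, -0.21), and iron entry and storage (-0.24, -0.24, -0.41). The cause was not tested.

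Among all measured genes 1119 were at least 2-fold higher and 2512 lower. The counts were 356 and 503 with a pseudocount of 5, 616 and 859 with an FPKM minimum of 5, and 381 and 5222 against the red cell list. With equal sums 900 were higher and 5679 lower, with aGVHD_V rescaled 547 higher and 3685 lower, and with genes without reads at the floor of 3 counts 883 higher and 987 lower. Lower genes made up 69.2% of those outside 2-fold as deposited, 86.3% with equal sums, 87.1% with aGVHD_V rescaled, 93.2% against the red cell list, 58.6% with the pseudocount of 5, 58.2% with the minimum of 5 and 52.8% at the floor. With each read as 1 count the interval of 9 genes instead of 8 lay above 1.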
